A study of Mus musculus with 30 samples.

Results

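The genes described here are the subunits of the ion channels that GABA, glutamate and glycine open directly. They were taken by gene symbol: the GABA-A receptor subunits (Gabra, Gabrb, Gabrg, Gabrd, Gabre, Gabrp, Gabrq and Gabrr genes), the ionotropic glutamate receptor subunits (AMPA, kainate, NMDA and delta types; Gria, Grik, Grin and Grid genes) and the glycine receptor subunits (Glra genes and Glrb). The rule found 42 genes, 19 of the GABA-A, 18 of the glutamate and 5 of the glycine receptors, among 55011 genes in one set of count files and among 35999 genes in another. The rule uses no expression value. GABA-A and glycine receptors are chloride channels, and ionotropic glutamate receptors are cation channels, each built of several subunits; the delta type belongs to the glutamate family by sequence, but glutamate is not known to open it. In the nervous system they carry fast inhibitory and excitatory transmission, and the subunits that a cell makes set its receptors' kinetics, location and drug response. Medullary thymic epithelial cells (mTECs) transcribe many genes whose products belong to other tissues and show them to developing T cells, and Aire, a nuclear protein of these cells, is needed for a large share of that transcription.

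RNA-seq was made from flow-sorted mTECs of female C57BL/6J mice aged 4 to 6 weeks, with 1000 cells per library, after enzymatic digestion of the thymus and depletion of CD45+ cells. One set held Aire-GFP+ cells, sorted by a green reporter of Aire, from Aire-KO mice (2 libraries) and from WT mice (3 libraries). The other set held mTEChi cells, the mature mTECs with high MHC class II, in 8 groups of 2 libraries: Aire-KO mice given spermidine or PBS by intraperitoneal injection, WT mice given spermidine or PBS in that way, WT mice given topotecan or its vehicle DMSO, Foxn1-cre, Nfe2l2 fl/fl mice and Foxn1-cre, Nfe2l2 +/+ mice. Spermidine is a polyamine, topotecan inhibits topoisomerase I (Top1), and Foxn1-cre deletes floxed genes in the thymic epithelium, so that both Nfe2l2 groups carried the Cre and only the fl/fl group carried the floxed alleles of the transcription factor gene Nfe2l2. No source at hand gives the doses or times of the injections, and the labels do not say which animals, or how many, gave each library. The p-values therefore measure the spread between libraries, which may in part be technical. Libraries of the same study from NOD mice and from mice with one B6 and one NOD parent were not analysed here.

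Library totals ran from 6615295 to 12682072 estimated counts in the Aire-GFP+ libraries and from 2027205 to 5724045 counts in the mTEChi libraries. The deposited gene totals did not check the knockouts: Aire itself had 1641 ± 188 CPM (counts-per-million, scaled by TMM factors) in the Aire-KO and 1653 ± 44.1 CPM in the WT Aire-GFP+ libraries (SD, n = 2 and 3), and 4363 ± 475 CPM in the Aire-KO and 1691 ± 87.1 CPM in the WT mTEChi libraries (SD, n = 4 each). Counts per gene do not tell reads of a disrupted gene from those of an intact one. The Nfe2l2 total likewise did not fall in Nfe2l2 fl/fl cells (log2 fold change 0.07). Why these totals did not fall was not tested for either gene. Top1 had 57.3 ± 5.84 CPM in Aire-KO and 75.6 ± 7.26 CPM in WT mTEChi libraries (log2 fold change -0.40, adjusted p = 0.0322). Epcam, an epithelial surface marker, was at 592 to 1217 CPM in all 21 libraries, and H2-Aa, an MHC class II gene of mature mTECs, averaged 18567 CPM in Aire-KO and 8364 CPM in WT Aire-GFP+ libraries. Fewer cells of a type and less RNA per cell cannot be told apart in such bulk libraries. Aire-KO and WT cells differed at a large share of all genes, 41.3% of 17923 genes tested in Aire-GFP+ cells and 22.8% of 18418 in mTEChi cells, by edgeR's quasi-likelihood test with Benjamini-Hochberg adjustment over all genes tested (called at an adjusted p below 0.05).

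The promoters below are those of some subunits whose calls in a main Aire comparison held under each alternative run, and of Gabrb1, which lies beside Gabra4. Not every subunit with such a call is shown. Gabra5 and Gabrp were lower, and Grin2c higher, in Aire-KO cells of both sets; Gabra4 was higher in Aire-KO mTEChi cells, and its neighbour Gabrb1, read from the opposite strand, was not called. Each window runs from 250 bases before to 50 bases after a RefSeq transcription start (GRCm38.p6, the mm10 build), 5′ to 3′ on the gene's own strand. The Gabra4 window is chr5:71658259-71658558 on the minus strand and the 2 Gabrb1 windows are chr5:71657671-71657970 and chr5:71699682-71699981 on the plus strand. The Gabra5 window is chr7:57510010-57510309, the Gabrp window chr11:33578908-33579207 and the Grin2c window chr11:115267194-115267493, all on the minus strand. Capitals mark the only run of the motif CACACACA in these windows, in the second Gabrb1 window.
Gabra4: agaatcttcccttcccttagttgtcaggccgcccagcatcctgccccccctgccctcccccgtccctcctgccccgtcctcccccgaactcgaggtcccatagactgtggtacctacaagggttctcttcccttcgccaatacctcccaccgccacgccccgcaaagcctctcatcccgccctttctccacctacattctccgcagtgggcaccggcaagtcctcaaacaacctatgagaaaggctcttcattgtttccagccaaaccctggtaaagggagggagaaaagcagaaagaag
Gabrb1, first start: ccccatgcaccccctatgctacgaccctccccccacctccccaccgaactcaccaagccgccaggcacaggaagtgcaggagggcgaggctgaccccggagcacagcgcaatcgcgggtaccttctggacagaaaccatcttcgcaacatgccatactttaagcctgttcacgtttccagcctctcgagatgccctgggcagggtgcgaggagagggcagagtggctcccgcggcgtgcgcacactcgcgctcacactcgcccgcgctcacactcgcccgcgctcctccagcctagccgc
Gabrb1, second start: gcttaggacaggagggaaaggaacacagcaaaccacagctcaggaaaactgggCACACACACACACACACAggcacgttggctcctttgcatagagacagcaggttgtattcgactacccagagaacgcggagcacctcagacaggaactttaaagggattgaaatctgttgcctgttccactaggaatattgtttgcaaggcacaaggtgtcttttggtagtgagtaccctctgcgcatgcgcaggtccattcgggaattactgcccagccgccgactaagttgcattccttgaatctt
Gabra5: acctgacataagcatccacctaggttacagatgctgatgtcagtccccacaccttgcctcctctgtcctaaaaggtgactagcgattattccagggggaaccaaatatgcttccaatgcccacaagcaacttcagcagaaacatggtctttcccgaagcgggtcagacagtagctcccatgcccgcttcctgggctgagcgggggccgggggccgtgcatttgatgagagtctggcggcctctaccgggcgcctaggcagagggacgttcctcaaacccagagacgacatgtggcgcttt
Gabrp: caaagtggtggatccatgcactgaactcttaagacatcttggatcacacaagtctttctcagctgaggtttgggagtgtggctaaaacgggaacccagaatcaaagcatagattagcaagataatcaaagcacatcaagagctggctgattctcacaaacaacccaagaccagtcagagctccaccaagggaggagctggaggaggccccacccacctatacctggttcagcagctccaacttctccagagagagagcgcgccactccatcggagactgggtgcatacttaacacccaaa
Grin2c: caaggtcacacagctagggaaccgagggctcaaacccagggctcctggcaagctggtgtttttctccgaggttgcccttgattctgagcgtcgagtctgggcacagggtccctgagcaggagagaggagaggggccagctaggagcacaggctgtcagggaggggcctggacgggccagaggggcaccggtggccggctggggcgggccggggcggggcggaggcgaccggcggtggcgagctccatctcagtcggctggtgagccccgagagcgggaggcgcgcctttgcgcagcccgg

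RefSeq windows were found for 29 of the 42 genes, 33 windows in all. CACACACA and CGCGCG are runs of alternating purine and pyrimidine, the kind of sequence that can take up left-handed Z-DNA, and both were searched on both strands. CACACACA was in 6.06% of the members' windows (Gabrb1 and Gabrb2), against 4.09% of 32851 windows of all genes. CGCGCG was in 18.2% of the members' windows (Gabrq, Gria2, Gria4, Grik3, Grik4 and Grin1), against 11.3% of all windows. Of the genes with CGCGCG, Gabrq and Grik3 were lower in Aire-KO Aire-GFP+ cells and Gria2 in Aire-KO mTEChi cells, calls that were each lost in some settings. Gria4, Grik4 and Grin1 were not called in either set. None of the windows printed above held CGCGCG. Whether this motif goes with a change in Aire-KO cells was not tested. The members' windows held a median of 11 CG dinucleotides (interquartile range 4 to 24), against 7 (3 to 20) over all windows. Among those printed, Grin2c had 22, Gabra5 13, Gabra4 12 and Gabrp 4. The first Gabrb1 start lies 387 bases from that of Gabra4 and its window has 25; the second lies 41624 bases from it and its window has 9.

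The subunits were transcribed at low levels in WT cells, and in no gene were all libraries of a set at 0. Per length, the highest of them in WT Aire-GFP+ cells was Gabrd, the delta subunit of GABA-A receptors outside synapses, with 12.8 ± 4.19 TPM (transcripts-per-million; SD, n = 3 in this and the next sentence). Gria3, an AMPA receptor subunit, had 8.82 ± 2.90 TPM, Gabrp, the pi subunit known from epithelia such as that of the uterus, 7.15 ± 2.78, Grin1, the obligatory NMDA receptor subunit, 4.26 ± 3.88, and Gabra5, an alpha subunit prominent in the hippocampus, 4.16 ± 2.35 TPM. Each of these overlapped its neighbours in that order, and the lowest, Gabra3, had 0.0667 TPM. In the 8 mTEChi libraries of WT mice given PBS, spermidine or DMSO and of Nfe2l2 +/+ mice, Gabrp came first with 12.3 ± 3.5 CPM per kilobase (SD, n = 8). It was followed by Gria3 (5.78 ± 1.3), Gabrd (5.20 ± 1.94), Gabrr1 (3.51 ± 4.43), a rho subunit of the retina's GABA-gated channels, and Grin2c (3.46 ± 2.92), an NMDA subunit typical of cerebellar granule cells, on the same scale. Gabrr1 spread from 0.849 to 14.4 CPM per kilobase over these libraries, so its place in the order is loose. Gria3 alone took 20.5% of the members' summed CPM in the Aire-GFP+ libraries and 22.6% in the mTEChi libraries. In the map of subunit genes over the 21 libraries, most rows are low in all groups and a few, such as Gria3, Grin2c, Gabrd and Gabrp, stand out in each set.

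**Figure D1:**
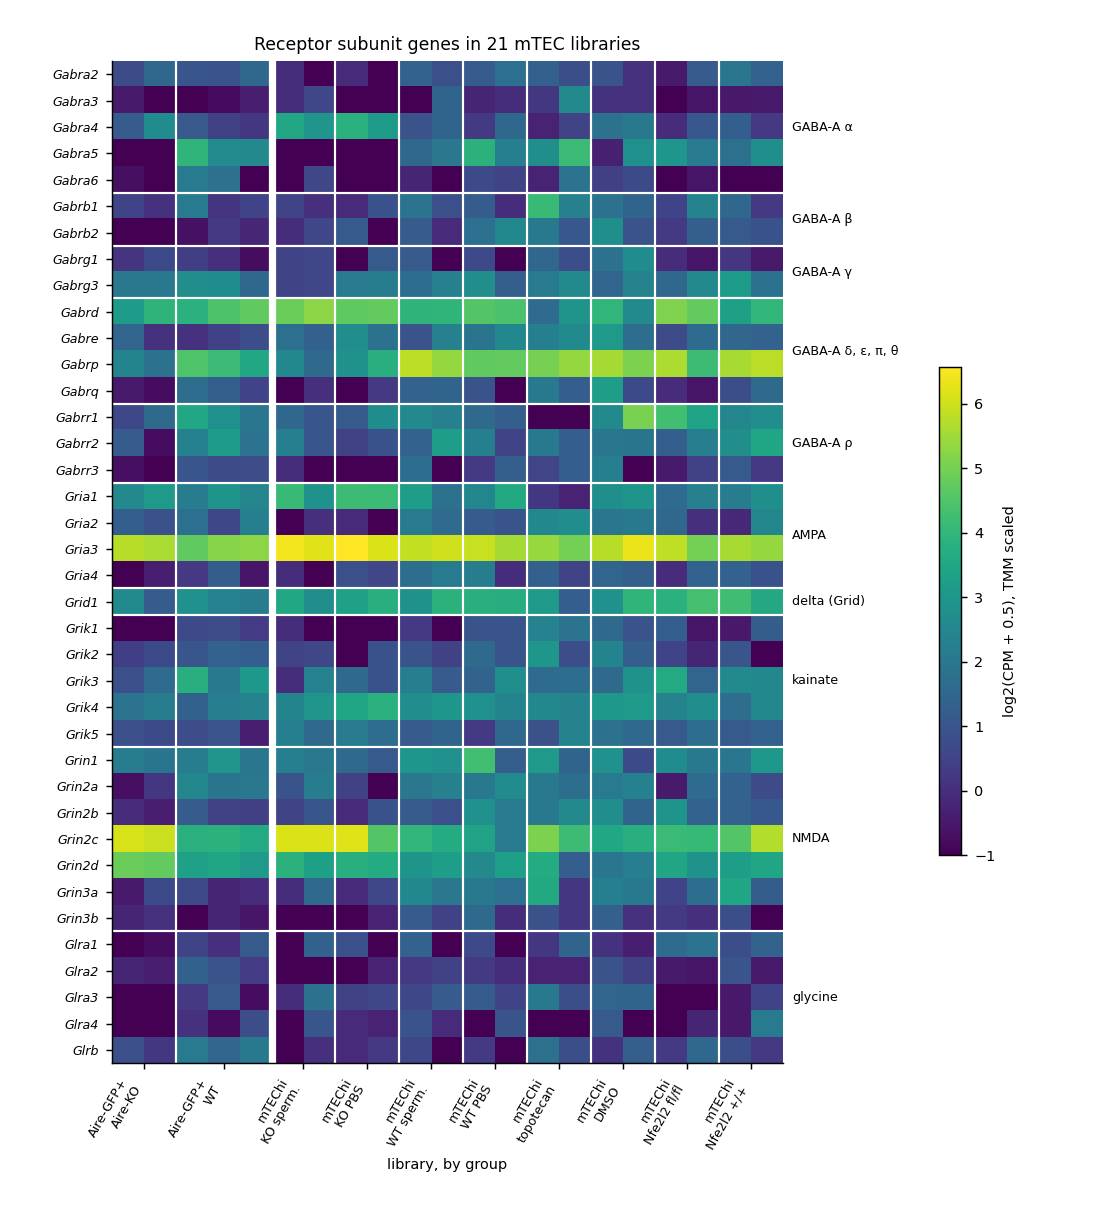
Level of 38 of the 42 subunit genes (rows, by family) in each of the 21 libraries (columns, by group), coloured by log2(CPM + 0.5). Gria3 is high in all libraries, Gabra5 is at 0 in the 6 Aire-KO libraries, and Grin2c is brightest in 5 of the 6 Aire-KO libraries.

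The question of the first comparison was which subunits depend on Aire. In Aire-GFP+ cells, 31 of the 42 genes had enough counts to be tested, and 10 fell and 3 rose in Aire-KO cells. That is 41.9% of those tested, close to the 41.3% called over all genes. The 10 that fell are 32.3% of those tested, where 22.3% of all genes tested fell; the 3 that rose are 9.68%, where 19% of all genes rose. The median log2 fold change of the tested members was -1.18, that of all genes -0.12. Libraries of the genotypes did not overlap for 15 tested members that were lower in Aire-KO cells and 4 that were higher, where 34.6% and 29.3% of all genes tested did so. By family, 6 of 14 tested GABA-A subunits fell and none rose, 3 of 14 glutamate receptor subunits fell and 3 rose, and 1 of 3 glycine receptor subunits fell. In mTEChi cells, 29 genes were tested, and 4 fell and 2 rose in Aire-KO cells (20.7%, near the 22.8% called over all genes). Those that fell were 13.8% of the tested members, near the 12.5% of all genes, and those that rose were 6.9%, with 10.3% of all genes; the median was -0.95 for members and -0.05 for all genes. That member median rests in part on 1 library: it was -0.35 without WT PBS library 1, over 36 tested members, and -0.30 with the PBS and spermidine libraries fitted alone, over 19. The libraries did not overlap for 5 lower and 6 higher members, where 13.4% and 13% of all genes did so. There, 3 of 13 tested GABA-A subunits fell and 1 rose, 1 of 16 glutamate receptor subunits fell and 1 rose, and no glycine receptor subunit was tested. The 2 sets share no library. Scaling by library totals alone moved the median log2 of all genes to -0.51 in Aire-GFP+ and -0.23 in mTEChi cells, and the calls over all genes to 1591 higher and 6250 lower (3410 and 4000 with TMM factors) and to 1167 higher and 3222 lower (1890 and 2305). A member with counts only in WT cells passed the count filter through those cells, so these shares describe the tested members alone.

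**Figure D2:**
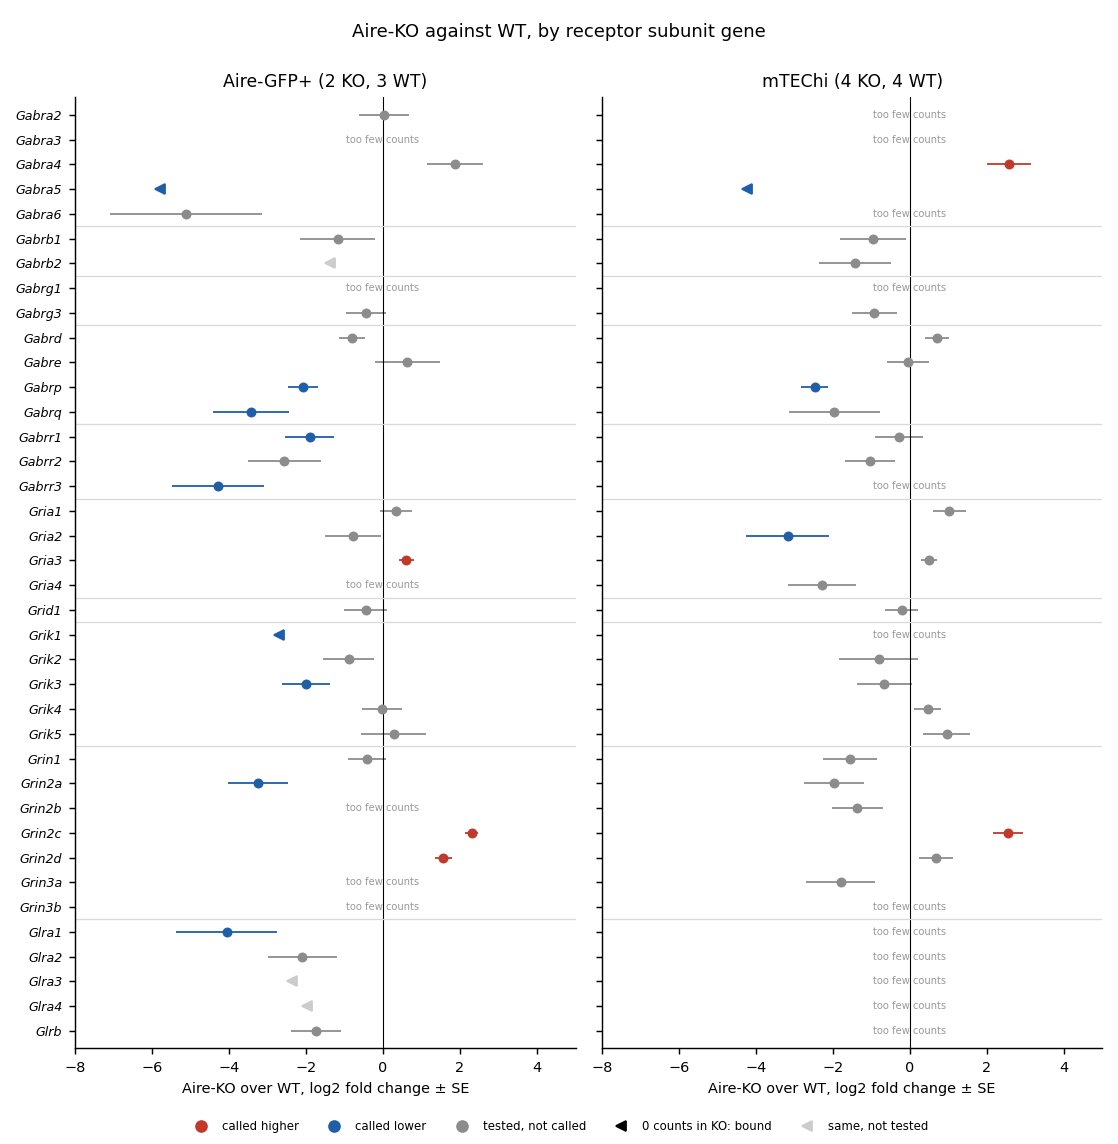
Log2 fold change, Aire-KO over WT, of 38 of the 42 subunit genes in Aire-GFP+ and mTEChi cells, with a standard error derived from the F test as bars. Red and blue mark genes called at an adjusted p below 0.05, arrows mark the bound for genes with 0 counts in Aire-KO libraries, and light grey marks genes that were not tested. Grin2c lies far to the right and Gabra5 and Gabrp to the left in both sets, and most other points lie left of 0 with wide bars.

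Among the GABA-A alpha subunits, Gabra5 was not detected in Aire-KO cells. It had 0 CPM in both Aire-KO Aire-GFP+ libraries, against 14.9, 5.82 and 5.39 CPM in the WT libraries, that is 0 against 231 counts. It also had 0 CPM in all 4 Aire-KO mTEChi libraries, against 2.48 and 3.51 CPM in WT spermidine and 14.2 and 4.37 CPM in WT PBS libraries, 0 against 63 counts. No Aire-KO library held a single Gabra5 count while each of the WT libraries did. With a floor of 3 counts over the Aire-KO group, Gabra5 was at least 55.1-fold lower in Aire-GFP+ cells (adjusted p = 0.00133) and at least 18.8-fold lower in mTEChi cells (adjusted p = 0.00485). These floors cover counting error only. Gabra5 lies at chr7:57407672-57510059 on the minus strand (mm10, GENCODE M21) and its exons share 148 bases with those of Gm9962, which counts without strand cannot separate. In the WT Aire-GFP+ libraries its counts were spread over 3 coding transcripts, and the one most used over all 3 libraries held 56.5%, 9.81% and 66.0% of them. The gamma subunit gene Gabrg3, next to it in the same cluster of subunit genes, had 3.58 CPM in Aire-KO and 4.89 CPM in WT Aire-GFP+ cells (adjusted p = 0.529). Oca2, the melanocyte gene beyond Gabrg3, fell in Aire-GFP+ cells (0.0473 CPM in Aire-KO and 5.82 CPM in WT, log2 fold change -6.48, adjusted p = 0.000981).

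Gabra4, an alpha subunit that pairs with the delta subunit in receptors outside synapses, went the other way. In mTEChi cells it had 11.2 and 7.25 CPM in Aire-KO spermidine and 13.5 and 8.29 CPM in Aire-KO PBS libraries, against 1.42 and 2.19 CPM in WT spermidine and 0.728 and 2.43 CPM in WT PBS libraries. All 4 Aire-KO libraries lay above all 4 WT libraries, and Gabra4 rose by 2.57 ± 0.58 on the log2 scale (SE; adjusted p = 0.0056). In Aire-GFP+ cells it had 1.78 and 5.87 CPM in Aire-KO libraries, against 1.66, 0.881 and 0.661 CPM in WT libraries, a log2 fold change of 1.87 ± 0.73 that was not called (adjusted p = 0.0705). Gabra4 (chr5:71569749-71658308, minus strand) and Gabrb1 on the plus strand share 46 exonic bases. Gabrb1 had 8 counts in the Aire-KO and 18 in the WT mTEChi libraries (log2 fold change -0.95 ± 0.86, adjusted p = 0.466). The other alpha genes were sparse: Gabra6 had 1 count in Aire-KO and 63 in WT Aire-GFP+ libraries, with 0 CPM in 1 of the 3 WT libraries (adjusted p = 0.0683). Gabra2 had 1.78 CPM in Aire-KO and 1.76 CPM in WT Aire-GFP+ cells (adjusted p = 0.986).

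Gabrp had 4.88 and 3.12 CPM in Aire-KO Aire-GFP+ libraries, against 22.1, 17.6 and 11.1 CPM in WT libraries (log2 fold change -2.09 ± 0.39, adjusted p = 0.00398). The mTEChi values of Gabrp were 5.34 and 2.59 CPM in Aire-KO spermidine and 6.94 and 13.1 CPM in Aire-KO PBS libraries, against 55.6 and 40.8 CPM in WT spermidine and 25.9 and 26.7 CPM in WT PBS libraries (-2.47 ± 0.35, adjusted p = 0.000198). Every Aire-KO library lay below every WT library in each set, and these calls held without any 1 library. Gabrp lies at chr11:33550781-33578959 on the minus strand, and nearly all its counts in Aire-GFP+ cells fell on 1 transcript (96.8% in Aire-KO and 98.5% in WT). Gabrq, the theta subunit of hypothalamus and brain stem, had 0.238 and 0.0946 CPM in Aire-KO Aire-GFP+ libraries, against 2.76, 1.94 and 0.945 CPM in WT libraries. It fell by 3.43 ± 0.99 on the log2 scale (adjusted p = 0.0248), on 3 and 52 counts, and the call was lost with limma-voom and without either Aire-KO library (adjusted p up to 0.146). Gabrd, by contrast, was below WT in Aire-KO Aire-GFP+ cells and above it in Aire-KO mTEChi cells, and neither difference was called in the main fits. It had 8.69 and 14.7 CPM in Aire-KO and 13.7, 21.3 and 26.3 CPM in WT Aire-GFP+ libraries (adjusted p = 0.0907), and 25.6 to 37.8 CPM in Aire-KO and 14.9 to 22.9 CPM in WT mTEChi libraries (adjusted p = 0.122). Alternatives did call Gabrd lower in Aire-GFP+ cells: library totals (adjusted p = 0.024), no count filter (0.0206) and leaving out WT library 1 (0.0323). With the PBS and spermidine libraries fitted alone, it was called higher in Aire-KO mTEChi cells (adjusted p = 0.0191). Whether Gabrd is called therefore depends on the setting.

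Of the 3 rho subunit genes, which make the GABA-gated channels of retinal bipolar cells, 2 fell in Aire-KO Aire-GFP+ cells. Gabrr1 had 1.07 and 2.56 CPM in Aire-KO libraries, against 10.9, 6.52 and 3.40 CPM in WT libraries (log2 fold change -1.90 ± 0.64, adjusted p = 0.0439). Gabrr3 had 0.119 and 0 CPM in Aire-KO libraries, against 1.52, 1.15 and 1.23 CPM in WT libraries (-4.29 ± 1.2, adjusted p = 0.0223), which is 1 count against 37. Gabrr2, beside Gabrr1 on chromosome 4, had 1.78 and 0.0946 CPM in Aire-KO libraries, against 4.56, 8.37 and 3.21 CPM in WT libraries, and was not called (-2.56 ± 0.95, adjusted p = 0.0611). Alternatives did call Gabrr2 lower: library totals (adjusted p = 0.0392), DESeq2 (0.0222), limma-voom (0.0493), a replicate block (0.0283) and no count filter (0.000946). Its difference from the 2 called rho genes therefore depends on the setting. No rho gene overlapped between Aire-KO and WT libraries there. The Gabrr1 call was lost with limma-voom, with an offset for effective length, and without WT library 1 or 2 or either Aire-KO library (adjusted p up to 0.186), and the Gabrr3 call without either Aire-KO library (up to 0.147). Exons of Gabrr3 share 279 bases with 1700022E09Rik. In mTEChi cells Gabrr1 had 1.55 to 5.87 CPM in Aire-KO and 1.94 to 5.67 CPM in WT libraries, which overlap (adjusted p = 0.793), and Gabrr2 was not called either (adjusted p = 0.278).

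**Figure D3:**
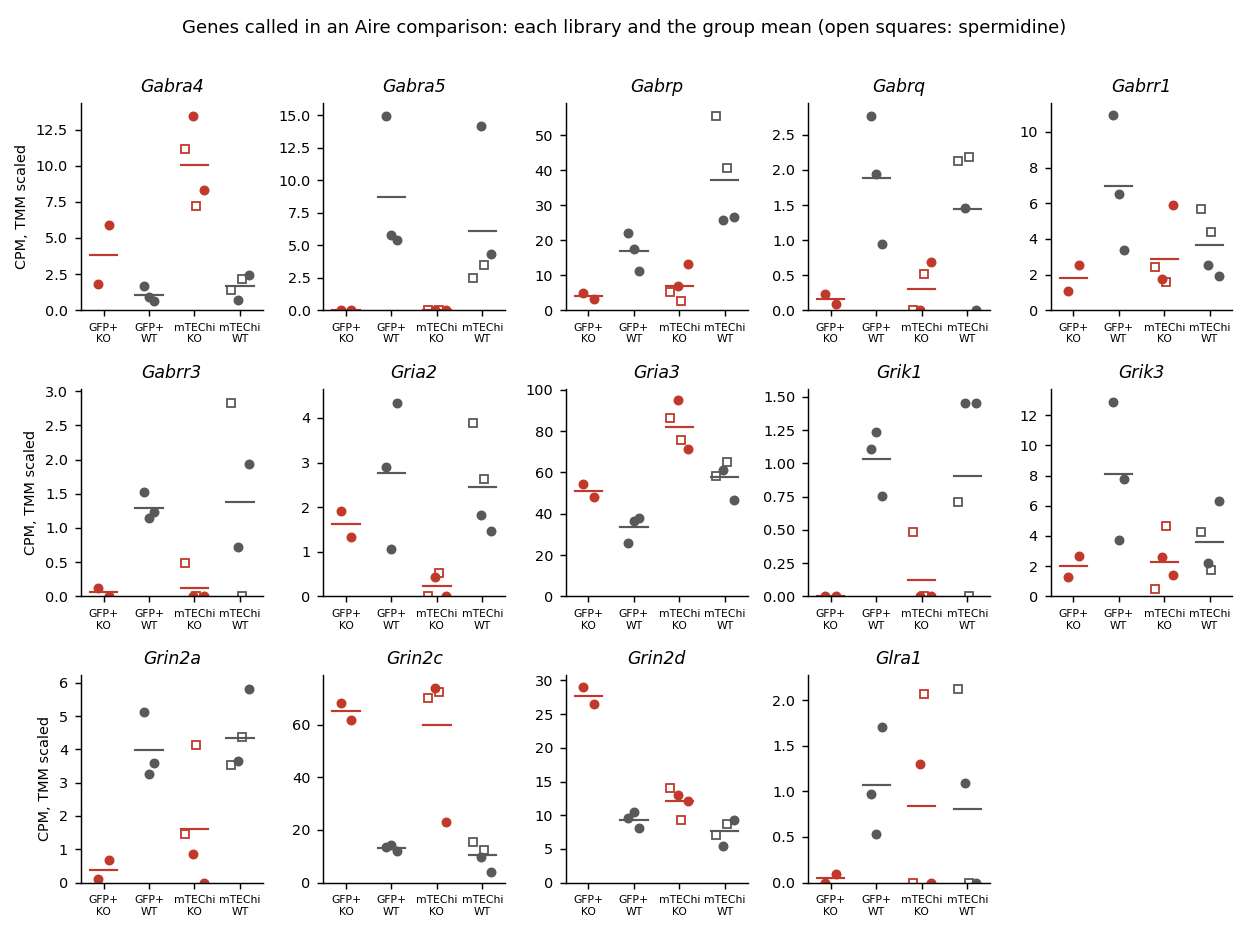
CPM of genes called in an Aire comparison in each Aire-GFP+ and mTEChi library, Aire-KO left of WT within each set; points are libraries, with open squares for spermidine libraries. Grin2c stands higher in Aire-KO libraries of both sets, and Gabra5 and Gabrp stand lower in both.

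Among the NMDA receptor subunits, Grin2c rose most firmly. It had 68.3 and 61.7 CPM in Aire-KO Aire-GFP+ libraries, against 13.4, 14.2 and 11.8 CPM in WT libraries (log2 fold change 2.31 ± 0.16, adjusted p = 6.42e-05). The mTEChi values of Grin2c were 69.9 and 72.5 CPM in Aire-KO spermidine and 73.8 and 22.8 CPM in Aire-KO PBS libraries, against 15.6 and 12.3 CPM in WT spermidine and 9.83 and 3.88 CPM in WT PBS libraries (2.55 ± 0.39, adjusted p = 0.000365). All Aire-KO libraries lay above all WT libraries of these treatments, although 1 Aire-KO PBS library was far below the other 3, and 1 Nfe2l2 +/+ library reached 51.4 CPM with Aire intact. Grin2c lies at chr11:115249169-115267243 on the minus strand. Its counts in Aire-GFP+ cells fell on the same transcript in both genotypes, 96.3% in Aire-KO and 96.0% in WT. Its exons share 91 bases with Gm25837. Grin2d, the NMDA subunit of the developing brain and of interneurons, rose in Aire-GFP+ cells, with 29.0 and 26.5 CPM in Aire-KO and 9.54, 10.4 and 8.13 CPM in WT libraries (1.57 ± 0.21, adjusted p = 0.000953). In mTEChi cells it had 9.32 to 14.1 CPM in Aire-KO and 5.46 to 9.22 CPM in WT libraries, which do not overlap, and was not called (0.68 ± 0.44, adjusted p = 0.303). Grin2d (chr7:45831883-45878378) shares 643 exonic bases with Gm45441, which itself rose in Aire-KO mTEChi cells (log2 fold change 1.96, adjusted p = 0.0124).

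Grin2a, the NMDA subunit of mature forebrain synapses, fell in Aire-GFP+ cells, with 0.119 and 0.663 CPM in Aire-KO and 5.11, 3.26 and 3.59 CPM in WT libraries (log2 fold change -3.25 ± 0.79, adjusted p = 0.0123). In mTEChi cells it had 0 to 4.14 CPM in Aire-KO and 3.54 to 5.82 CPM in WT libraries, which overlap, and was not called (-1.97 ± 0.78, adjusted p = 0.0864). So within the NMDA family, Grin2c and Grin2d rose and Grin2a fell in the same Aire-KO Aire-GFP+ libraries. Grin1, which every NMDA receptor needs, had 4.16 and 3.31 CPM in Aire-KO and 4.15, 7.32 and 3.40 CPM in WT Aire-GFP+ libraries, with no call (adjusted p = 0.529). Grin1 shares 1307 exonic bases with its antisense gene Grin1os. Grin2b, the subunit of early postnatal forebrain, had 7 counts in Aire-KO and 32 in WT Aire-GFP+ libraries and was not tested there, and the mTEChi difference was not called (-1.37 ± 0.66, adjusted p = 0.155). Grin3a, a glycine-binding NMDA subunit, was not called in mTEChi cells either (-1.79 ± 0.89, adjusted p = 0.168).

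Of the AMPA receptor subunits, Gria3 rose in Aire-GFP+ cells, with 54.3 and 48.1 CPM in Aire-KO and 25.9, 36.6 and 37.8 CPM in WT libraries (log2 fold change 0.61 ± 0.19, adjusted p = 0.0353). Gria3 had 71.2 to 95.0 CPM in Aire-KO and 46.6 to 64.8 CPM in WT mTEChi libraries, which do not overlap, without a call (0.51 ± 0.20, adjusted p = 0.0895). The Aire-GFP+ call depends on the scaling: with library totals in place of TMM factors the log2 fold change was 0.21 (adjusted p = 0.424), and it was also lost with an offset for effective length and without WT library 2 or either Aire-KO library (adjusted p up to 0.157 without a library). Protein-coding transcripts held 72.9% and 25.04% of the Gria3 counts in the Aire-KO and 0.807%, 75.04% and 85.2% in the WT Aire-GFP+ libraries, so this share differed widely within each genotype and the genotypes overlap. Gria2, the subunit that keeps AMPA receptors closed to calcium, fell in mTEChi cells. It had 0 and 0.518 CPM in Aire-KO spermidine and 0.434 and 0 CPM in Aire-KO PBS libraries, against 3.89 and 2.63 CPM in WT spermidine and 1.82 and 1.46 CPM in WT PBS libraries (-3.18 ± 1.07, adjusted p = 0.0457). That is 2 counts against 25, and the call was lost with limma-voom and when any 1 of the 8 libraries was left out (adjusted p up to 0.138). In Aire-GFP+ cells Gria2 had 1.90 and 1.32 CPM in Aire-KO and 2.90, 1.06 and 4.35 CPM in WT libraries (adjusted p = 0.425). Gria1 had 6.73 to 17.8 CPM in Aire-KO and 3.07 to 11.6 CPM in WT mTEChi libraries (adjusted p = 0.104), and Gria4 was not called in mTEChi cells (-2.27 ± 0.88, adjusted p = 0.0786).

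Of the kainate receptor subunits, Grik1 and Grik3 fell in Aire-GFP+ cells. Grik1 had 0 CPM in both Aire-KO libraries, against 1.11, 1.23 and 0.756 CPM in WT libraries. On 0 against 30 counts it was at least 6.53-fold lower (adjusted p = 0.0163). Grik3 had 1.31 and 2.65 CPM in Aire-KO libraries, against 12.9, 3.70 and 7.75 CPM in WT libraries (log2 fold change -2.00 ± 0.63, adjusted p = 0.0335). Neither gene overlapped between the genotypes, but the Grik1 call was lost without either Aire-KO library (adjusted p up to 0.0897) and the Grik3 call with limma-voom and without WT library 1 or 3 or either Aire-KO library (up to 0.156). Grik1 was tested in only 3 of the 5 fits with 1 library left out, and 1 of these kept its call. In mTEChi cells Grik1 was not tested and Grik3 was not called (-0.66 ± 0.72, adjusted p = 0.555). Grik2, Grik4 and Grik5 were not called in the main fit of either set. With an offset for effective length, Grik2 was called lower in Aire-KO Aire-GFP+ cells (-2.36, adjusted p = 0.0478). Grid1, of the delta type, was not called in either set (-0.45 and -0.21).

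All 5 glycine receptor genes were lower in Aire-KO Aire-GFP+ libraries than in WT by their mean CPM, and 1 of the 3 tested was called. Glra1, the alpha subunit of adult spinal cord and brain stem, had 0 and 0.0946 CPM in Aire-KO libraries, against 0.968, 0.529 and 1.70 CPM in WT libraries (log2 fold change -4.06 ± 1.31, adjusted p = 0.0374). It rests on 1 count against 31, and the call was lost with limma-voom and without either Aire-KO library (adjusted p up to 0.186). Of the 5 fits with 1 library left out, only 3 tested Glra1 and 1 kept the call. Exons of Glra1 share 141 bases with Gm12236. Glrb, the beta subunit that binds the scaffold gephyrin, had 1.31 and 0.663 CPM in Aire-KO and 3.87, 2.29 and 3.69 CPM in WT libraries (-1.73 ± 0.65, adjusted p = 0.0627), and Glra2 was not called (-2.09 ± 0.90, adjusted p = 0.0943). Glra3 and Glra4 had no count in Aire-KO libraries and 25 and 18 counts in WT libraries, too few to be tested, as was Gabrb2 with 0 in Aire-KO and 13 in WT. In mTEChi cells, the glycine receptor genes had at most 12 counts in the 4 Aire-KO libraries and 14 in the 4 WT libraries, and Glra3, with exactly these, was the highest. None of them passed the count filter there, so no difference in them was tested. Glra2 had 1 count in the Aire-KO and 7 in the WT mTEChi libraries, and its libraries did not overlap (at most 0.345 CPM in Aire-KO and at least 0.485 CPM in WT).

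Fewer subunit genes were detected in Aire-KO libraries than in WT libraries of the same comparisons, while their summed level, scaled by TMM factors, was close. With every Aire-GFP+ library thinned to the total of the shallowest, 31.6 and 29.2 of the 42 genes had at least 1 count on average in the Aire-KO libraries, against 40.0, 41.3 and 40.1 in the WT libraries. With every mTEChi library thinned in the same way, the numbers were 31.9 and 34.8 in Aire-KO spermidine and 28.3 and 29.4 in Aire-KO PBS libraries, against 40.3 and 35.6 in WT spermidine and 40.4 and 38.0 in WT PBS libraries. Aire-KO libraries did not overlap in either set with the WT libraries listed here. Nfe2l2 fl/fl libraries, with Aire intact, had 33.5 and 34.5, inside the Aire-KO range, and Nfe2l2 +/+ libraries 37.7 and 35.5. The DMSO and topotecan libraries had 38.8 to 41.1. The summed CPM of the 42 genes was 206 ± 6.82 in Aire-KO and 193 ± 17.5 in WT Aire-GFP+ libraries (SD, n = 2 and 3), and 274 ± 28.4 in Aire-KO and 252 ± 25.01 in WT mTEChi libraries (SD, n = 4 each). The order of these sums turned round with library totals in place of TMM factors or without Gria3. With library totals the sums were 174 in Aire-KO and 215 in WT Aire-GFP+ libraries, and 248 in Aire-KO and 259 in WT mTEChi libraries. The number of genes detected went by library totals too, without TMM factors. It was not computed over all genes, so the drop cannot be called particular to the subunits.

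**Figure D4:**
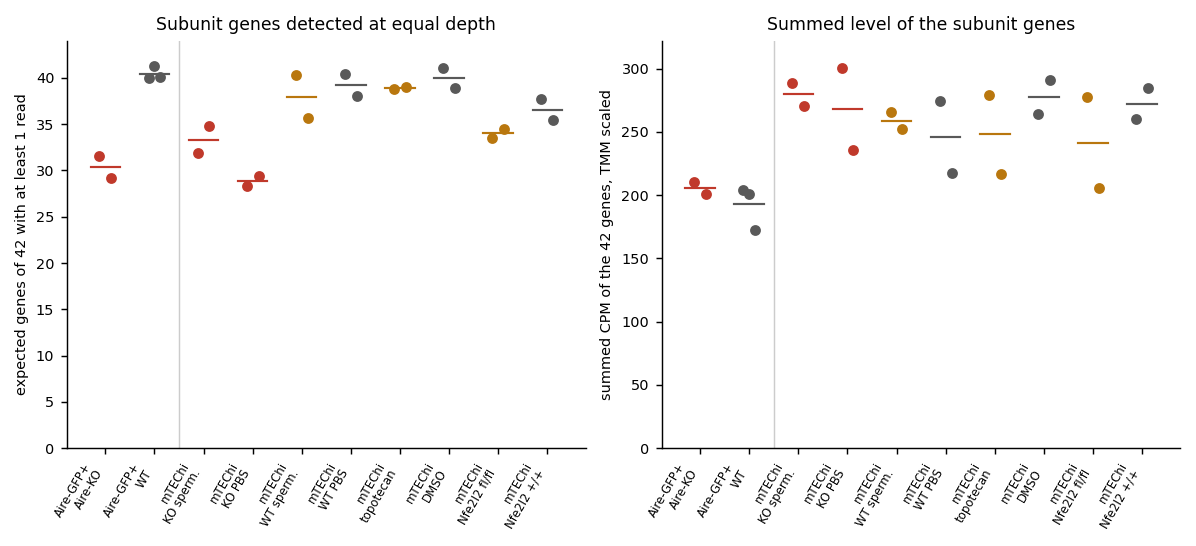
Number of the 42 subunit genes with at least 1 count at equal depth (left) and their summed CPM (right) in each library, by group, with the Aire-KO, topotecan, spermidine and fl/fl groups left of their controls; each point is a library and lines are group means. Aire-KO libraries have 28.3 to 34.8 genes and their WT counterparts 35.6 to 41.3. The Nfe2l2 fl/fl libraries, with 33.5 and 34.5, lie within the Aire-KO range. The summed levels, scaled by TMM factors, lie close together.

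Called and uncalled genes lay side by side. Of the 42 genes, 18 lie within 1 Mb of another. On chromosome 5, Gabra4 rose in Aire-KO mTEChi cells while Gabrg1 was not tested and Gabrb1 was not called. On chromosome 7, Gabra5 fell in both sets while Gabrg3 was not called. Of the 28 genes on either side of a called subunit, 20 were tested in Aire-GFP+ cells, and 2 rose and 7 fell there (45%, near the 41.3% called over all genes), and 19 were tested in mTEChi cells, where 1 rose and 2 fell (15.8%, where 22.8% of all genes were called). Nmur2, beside Glra1, fell in Aire-GFP+ cells (log2 fold change -7.06, adjusted p = 0.000725) and in mTEChi cells (-4.30, adjusted p = 0.00623), and Csf3r, beside Grik3, fell in Aire-GFP+ cells (-2.69, adjusted p = 0.0206) and in mTEChi cells (-1.19, adjusted p = 0.0371). D130052B06Rik, beside Gabrp, had 0 CPM in Aire-KO and 1.46 CPM in WT Aire-GFP+ cells (adjusted p = 0.0145). Tmem104, beside Grin2c, rose in mTEChi cells by 0.58 on the log2 scale (adjusted p = 0.00711), but in Aire-GFP+ cells had 13.9 CPM in Aire-KO and 21.6 CPM in WT (-0.63, adjusted p = 0.0911), where Grin2c rose. Others moved against the subunit next to them: Thoc2 fell beside Gria3 (-0.50, adjusted p = 0.0428) and Grwd1 beside Grin2d (-0.91, adjusted p = 0.043), and Cetn2 rose beside Gabrq (0.79, adjusted p = 0.00128) and Bach1 beside Grik1 (0.71, adjusted p = 0.0452), all in Aire-GFP+ cells. G3bp1, on the other side of Glra1, fell by 0.69 on the log2 scale (adjusted p = 0.00336).

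Other genes of these transmitter systems were counted from lists of the pathways. Over all genes tested, 22.3% fell and 19% rose in Aire-KO Aire-GFP+ cells, and 12.5% fell and 10.3% rose in mTEChi cells. Of the metabotropic receptors, which act through G proteins, 4 of 9 tested fell and none rose in Aire-KO Aire-GFP+ cells (median log2 fold change -1.47), and 2 of 9 fell and none rose in mTEChi cells (-1.19). Grm2, a presynaptic glutamate receptor, fell to 0.0473 CPM in Aire-KO, against 4.01 CPM in WT Aire-GFP+ cells (-5.95 ± 1.25, adjusted p = 0.0068). Of the genes that make and carry GABA, 6 of 7 tested fell and none rose in Aire-GFP+ cells (median -2.31), and 3 of 7 fell and none rose in mTEChi cells (-2.51). Gad1, which makes GABA from glutamate, had 15.5 ± 1.09 CPM in Aire-KO and 48.2 ± 12.6 CPM in WT Aire-GFP+ cells (-1.63 ± 0.24, adjusted p = 0.00135), but was not called in mTEChi cells (-0.47, adjusted p = 0.32). The GABA transporter gene Slc6a13 had 0.852 CPM in Aire-KO and 12.2 CPM in WT Aire-GFP+ cells, and 0.793 CPM in Aire-KO and 9.74 CPM in WT mTEChi cells (-3.74 and -3.69, adjusted p = 0.0107 and 0.00135). Slc6a12, another, fell as well (-4.57 in Aire-GFP+ and -2.87 in mTEChi cells). The summed level of this list was 22.7 to 25.3 CPM in Aire-KO and 66.5 to 103 CPM in WT Aire-GFP+ libraries, and 30.03 to 40.8 CPM in Aire-KO and 60.03 to 75.7 CPM in WT mTEChi libraries.

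Genes that make and carry glutamate and glycine were mixed, with 5 of 14 tested up and 5 down in Aire-KO Aire-GFP+ cells and 1 up and 3 down of 14 in mTEChi cells (medians -0.27 and -0.08). The shares over all genes, here and for the auxiliary subunits and scaffolds, were 19% up and 22.3% down in Aire-GFP+ cells and 10.3% up and 12.5% down in mTEChi cells. Slc17a6, the vesicular glutamate transporter of subcortical neurons, had 0.119 CPM in Aire-KO and 7.57 CPM in WT Aire-GFP+ cells (-5.98, adjusted p = 0.00123) and 0.845 CPM in Aire-KO and 10.9 CPM in WT mTEChi cells (-4.07, adjusted p = 9.75e-05). Slc6a5, the transporter that loads glycinergic nerve endings, fell in both (-1.38 and -2.78, adjusted p = 0.0319 and 0.0115). Glud1 and Gls2, enzymes of glutamate metabolism present in most tissues or in liver, rose in Aire-GFP+ cells (1.41 each, adjusted p = 0.000269 and 0.000904), and the glutamate transporter Slc1a3 rose in mTEChi cells (1.12, adjusted p = 6.2e-06). Of the auxiliary subunits and secreted partners, 5 of 13 rose and 3 fell in Aire-GFP+ cells, and 4 of 14 rose and 2 fell in mTEChi cells (medians 0.04 and -0.91). Shisa9, an AMPA receptor auxiliary protein, had 20.1 CPM in Aire-KO and 4.45 CPM in WT Aire-GFP+ cells and 19.8 CPM in Aire-KO and 6.33 CPM in WT mTEChi cells (2.16 and 1.68, adjusted p = 0.00163 and 0.00825). Cbln4, a secreted synapse organizer, and Gsg1l, another AMPA auxiliary protein, also rose in both sets (1.27 and 2.91 for Cbln4, 1.26 and 1.48 for Gsg1l), whereas Cacng3 had no count in any of those Aire-KO libraries and 2.17 CPM in WT Aire-GFP+ and 1.70 CPM in WT mTEChi cells. Of the synaptic scaffolds, 4 of 17 rose and 3 fell in Aire-GFP+ cells, and 1 of 18 rose and 2 fell in mTEChi cells (medians -0.05 and -0.09). Dlg2, which anchors NMDA receptors, rose in Aire-GFP+ cells (1.24, adjusted p = 0.00025), and the AMPA receptor partners Grip1 and Grip2 fell in both sets (-1.91 and -2.75 in Aire-GFP+, -2.07 and -2.13 in mTEChi cells).

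Markers of other cells moved in both directions, as did all genes, of which 19% rose and 22.3% fell in Aire-GFP+ and 10.3% rose and 12.5% fell in mTEChi cells. Of 10 neuron markers, 2 rose (Snap25 and Syt1) and 4 fell in Aire-KO Aire-GFP+ cells, and 1 rose and 4 fell in mTEChi cells (median log2 fold change -2.14 and -1.07). Their summed level was 368 to 428 CPM in Aire-KO and 251 to 340 CPM in WT Aire-GFP+ libraries, and 619 to 747 CPM in Aire-KO and 493 to 505 CPM in WT mTEChi libraries. Most of that sum is Syt1 alone, with 347 CPM in Aire-KO and 193 CPM in WT Aire-GFP+ cells and 638 CPM in Aire-KO and 389 CPM in WT mTEChi cells, while most other neuron markers were lower in Aire-KO cells. Rbfox3, a nuclear protein of mature neurons, had 1.09 CPM in Aire-KO and 7.83 CPM in WT Aire-GFP+ cells. Of 8 Schwann cell and glia markers, 1 rose and 4 fell in Aire-GFP+ cells and none rose and 4 fell in mTEChi cells (medians -2.59 and -2.09), with sums of 78.3 to 92.8 CPM in Aire-KO and 75.1 to 95.3 CPM in WT Aire-GFP+ libraries. Sox10, the glial transcription factor, had 0.0473 CPM in Aire-KO and 3.36 CPM in WT Aire-GFP+ cells. Of the neuroendocrine markers, 3 of 9 tested rose and 3 fell in Aire-GFP+ cells, and 2 of 10 rose and 1 fell in mTEChi cells (medians -0.14 and -0.64). Insm1 had 81.6 CPM in Aire-KO and 17.0 CPM in WT Aire-GFP+ cells (2.27 ± 0.16, adjusted p = 6.76e-05). Chga went the other way, with 20.3 to 21.7 CPM in Aire-KO and 48.0 to 63.3 CPM in WT Aire-GFP+ libraries. Neurod1 was at 0 in both Aire-KO and 2 of the 3 WT Aire-GFP+ libraries, with 0.553 CPM in the other. The sums for this list were 230 to 242 CPM in Aire-KO and 149 to 182 CPM in WT Aire-GFP+ libraries, and 151 to 206 CPM in Aire-KO and 142 to 243 CPM in WT mTEChi libraries. Fibroblast markers summed to 282 to 353 CPM in Aire-KO and 110 to 159 CPM in WT Aire-GFP+ libraries, and to 182 to 227 CPM in Aire-KO and 183 to 387 CPM in WT mTEChi libraries. In Aire-GFP+ cells Dcn made up most of that sum (273 CPM in Aire-KO and 45.0 CPM in WT), while Col1a1 had 0.331 CPM in Aire-KO and 32.0 CPM in WT. Cortical thymic epithelial markers summed to 2458 to 2460 CPM in Aire-KO and 766 to 927 CPM in WT Aire-GFP+ libraries, and to 1261 to 1571 CPM in Aire-KO and 873 to 1106 CPM in WT mTEChi libraries. Most of the Aire-GFP+ sum is Ccl25 (2258 CPM in Aire-KO and 585 CPM in WT), and Psmb11 had 8.23 CPM in Aire-KO and 22.2 CPM in WT. The mTEC markers summed to 20551 to 23430 CPM in Aire-KO and 11446 to 11587 CPM in WT Aire-GFP+ libraries. Muscle, thymocyte and endothelial markers summed lower in Aire-KO than in WT Aire-GFP+ libraries without overlap (157 to 163 against 187 to 211, 32.3 to 47.8 against 64.2 to 77.3, and 12.4 to 14.8 against 18.0 to 22.4 CPM). In mTEChi libraries all of these sums overlapped. Muscle markers had 432 to 675 CPM in Aire-KO and 318 to 442 CPM in WT mTEChi libraries. Thymocyte markers had 94.6 to 209 against 99.0 to 170 CPM, and endothelial markers 19.5 to 59.7 against 24.4 to 74.1 CPM. The part of these cells in the subunit results was not tested. Among the other lists, muscle markers gave 2 lower in Aire-GFP+ cells and 1 higher and 1 lower in mTEChi cells, thymocyte markers 2 lower and none, fibroblast markers 2 higher and 2 lower and then 3 lower, endothelial markers 1 lower and none, erythroid markers none and 1 lower, cortical thymic epithelial markers 2 higher and 2 lower and then 1 higher and 1 lower, and mTEC markers 3 higher and 1 lower and then 5 higher and 1 lower.

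The next comparison was of spermidine with PBS. No subunit was called between spermidine and PBS libraries of both genotypes, and no gene of the 18418 tested was (0%) by edgeR, with 820 genes and 0 members at an unadjusted p below 0.05 and 1 higher and 1 lower by DESeq2. The smallest p among members was that of Grin2c, with 42.6 ± 33.1 CPM in spermidine and 27.6 ± 31.8 CPM in PBS libraries (SD, n = 4 each; log2 fold change 0.77 ± 0.39, adjusted p = 0.991). Within PBS libraries alone, Grin2c (2.75, adjusted p = 0.00768) and Gabra4 (2.80, adjusted p = 0.0448) rose and Gabra5 (at least 16.1-fold lower, adjusted p = 0.0217) fell in Aire-KO cells. In all, 4 of 29 tested (13.8%) were called, where 10.3% of all genes were called, 5.21% higher and 5.08% lower. Within spermidine libraries alone, Grin2c rose (2.34, adjusted p = 0.0137) and Gabrp fell (-3.58, adjusted p = 0.000861), 2 of 29 (6.9%) where 9.11% of all genes were called, 4.77% higher and 4.34% lower. Libraries of the genotypes did not overlap for 11 lower and 8 higher members within PBS, where 29.7% and 25.6% of all genes did so, and for 11 lower and 7 higher within spermidine, where 29.4% and 26.8% did. Gabrp was not called within PBS libraries in the main fit (-1.36, adjusted p = 0.0748). The difference between these Gabrp changes was -2.22 ± 0.72 on the log2 scale and did not pass (unadjusted p = 0.00778, adjusted p = 1), nor did that of any other gene (0% by edgeR, with 619 genes, Gabrp among them, at an unadjusted p below 0.05 and 1 higher and 2 lower by DESeq2). With 2 libraries a group, leaving out any 1 of the 4 libraries ended the PBS calls of Gabra4 (adjusted p up to 0.265) and the spermidine call of Grin2c (up to 0.101). The PBS call of Gabra5 was lost without WT PBS library 1 or either Aire-KO PBS library, and that of Grin2c without WT PBS library 2 or Aire-KO PBS library 1 (up to 0.129 for each). The spermidine call of Gabrp held without any 1 library. With limma-voom the PBS calls were lost, as was the spermidine call of Gabrp (adjusted p = 0.0534), and with library totals the PBS call of Gabra4 was lost (adjusted p = 0.0579). Within PBS, some alternatives did call Gabrp lower: library totals (adjusted p = 0.0448), DESeq2 (0.035), no count filter (0.00252) and the PBS and spermidine libraries fitted alone (0.0242). A fall of Gabrp called within spermidine alone therefore depends on the setting. These comparisons share libraries with the one over both treatments.

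Topotecan called 1 of 29 tested members, Gabrr1 (3.45%, where 0.652% of all genes were called and 0.456% fell). Gabrr1 had 0 CPM in both topotecan libraries, against 5.73 and 32.8 CPM in the DMSO libraries, that is 0 and 0 counts against 20 and 117. With a floor of 3 counts over the topotecan group it was at least 39.6-fold lower (adjusted p = 0.0149). One DMSO library stands high: the other 6 libraries of WT mice given PBS or spermidine and of Nfe2l2 +/+ mice had 1.94 to 6.05 CPM, and the 2 Nfe2l2 fl/fl libraries 19.0 and 9.90 CPM. No library outside the topotecan group was at 0. The call was lost without topotecan library 2 (adjusted p = 0.0517), with limma-voom (adjusted p = 0.209) and when the topotecan and DMSO libraries were fitted alone (adjusted p = 0.308). Gria1, an AMPA receptor subunit, had 0.662 and 0.319 CPM in topotecan libraries, against 6.31 and 7.01 CPM in DMSO libraries, the lowest of all mTEChi libraries. It was not called (log2 fold change -3.67 ± 0.82, adjusted p = 0.0606), although DESeq2 called it (adjusted p = 0.0229). Gria3 had 42.4 and 31.2 CPM in topotecan and 54.2 and 81.6 CPM in DMSO libraries (-0.88 ± 0.29, adjusted p = 0.183), Gabra4 0.331 and 0.956 CPM in topotecan and 3.15 and 3.65 CPM in DMSO libraries (-2.33 ± 0.90, adjusted p = 0.262), and Grin2c 33.5 and 17.8 CPM in topotecan and 10.9 and 12.9 CPM in DMSO libraries (1.10 ± 0.53, adjusted p = 0.372). Aire itself fell, with 730 ± 126 CPM in topotecan and 1340 ± 227 CPM in DMSO libraries (-0.88 ± 0.14, adjusted p = 0.0125), and Top1 was not called (0.28, adjusted p = 0.473). Neuroendocrine markers summed to 166 to 228 CPM in topotecan and 287 to 626 CPM in DMSO libraries, and fibroblast markers to 182 to 1419 CPM in topotecan and 386 to 751 CPM in DMSO libraries; their part in these values was not tested.

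**Figure D5:**
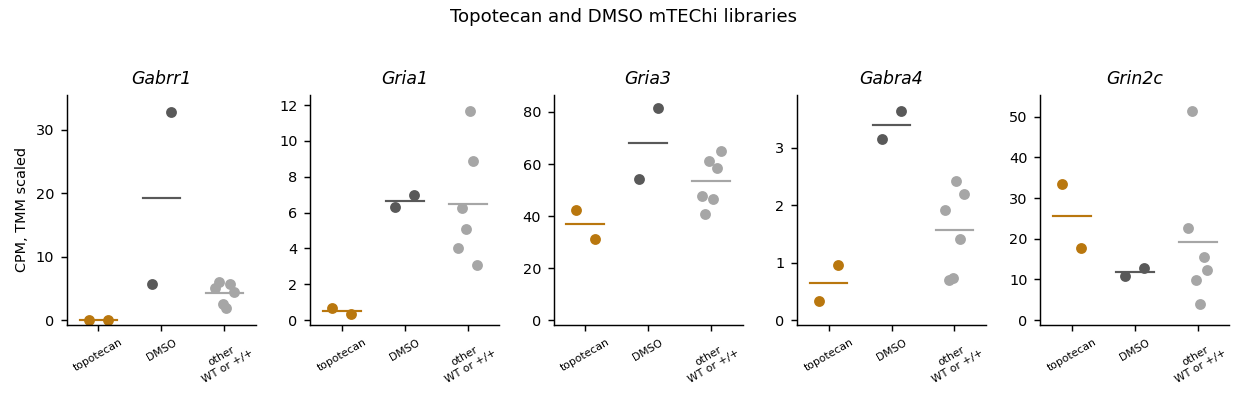
CPM of Gabrr1, Gria1, Gria3, Gabra4 and Grin2c in topotecan libraries, DMSO libraries and the other WT or Nfe2l2 +/+ mTEChi libraries; each point is a library. Gabrr1 is at 0 in both topotecan libraries, and its 2 DMSO libraries stand far apart from each other, at 5.73 and 32.8 CPM.

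Deletion of Nfe2l2, which encodes the antioxidant regulator NRF2, changed no subunit at the threshold, nor any other gene (0% by edgeR, with 973 genes, Gabrd and Grin2c among them, at an unadjusted p below 0.05 and 13 higher and 13 lower by DESeq2, with 0 members among these). Gabrd had 34.1 and 26.3 CPM in Nfe2l2 fl/fl libraries, against 9.35 and 15.6 CPM in Nfe2l2 +/+ libraries (log2 fold change 1.28 ± 0.43, adjusted p = 0.748). Grin2c had 17.3 and 16.4 CPM in Nfe2l2 fl/fl libraries, against 22.7 and 51.4 CPM in Nfe2l2 +/+ libraries (-1.13 ± 0.49, adjusted p = 0.901). Neither gene's libraries overlapped between these groups, as was so for 2 higher and 5 lower of the 29 tested members. The share of all genes without overlap was not computed here. With 2 libraries a group, such a separation alone carries little weight. Gabrr1 had 19.0 and 9.90 CPM in Nfe2l2 fl/fl libraries, against 5.10 and 6.05 CPM in Nfe2l2 +/+ libraries (1.36 ± 0.71, adjusted p = 0.985).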

How the data were processed

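Single libraries were made from sorted cells with oligo(dT) priming and a Smart-seq2 protocol, per the labels' protocols, without molecular identifiers or strand. The authors deposited kallisto estimated counts, TPM and effective lengths per transcript for the Aire-GFP+ libraries, and whole-number counts per gene for the mTEChi libraries. STAR, featureCounts, kallisto, TopHat2 2.1.1, SAMtools 1.3.1 and mm10 are named in the submitters' processing notes, with no role, order or strand setting, so reads of overlapping and antisense genes cannot be told apart. The deposited columns were all used. Of 118489 transcripts, 116816 matched GENCODE M21 and were summed by gene symbol and rounded; unmatched transcripts held 0.541% to 0.578% of the estimated counts. Of 55011 mTEChi symbols, 53009 matched that annotation. TPM, as the authors deposited it, was summed per gene.

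Libraries were compared with edgeR 4.0.16 in R 4.3.3 (filterByExpr, TMM, quasi-likelihood test, Benjamini-Hochberg over all genes tested, called at an adjusted p below 0.05). The Aire-GFP+ libraries had a fit of their own, and the 16 mTEChi libraries shared one fit with a mean per group. CPM are TMM-scaled. Where a whole group had 0 counts, the bound on the fold was computed from 3 counts in that group. The summed level and the number of genes detected at equal depth, an expected number from the hypergeometric distribution, are given as values without a p. Alternatives were library totals, DESeq2's size factors and test (1.42.0), limma-voom (3.58.1), no count filter, an offset for kallisto's effective length, a replicate block, each experiment alone and each library left out. The pipeline was tested on simulated data. Python 3.11.15, pandas 2.3.3, numpy 2.4.6, scipy 1.17.1 and matplotlib 3.10.9 made the summaries and figures.

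The genes, lists and tests were chosen with earlier results of these data known. Genes named with values are those called in any comparison, the 5 highest per length in WT cells of each set, the targeted genes, genes of the lists called in an Aire comparison, and genes flanking or overlapping a called subunit; further subunits are named to account for each family. Some genes are counted among these but not reported here. Replicate numbers did not pair the libraries: same-numbered libraries had correlated deviations of -0.00975 to 0.0498, below 0.1.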

Additional observations from a re-analysis of the deposited data

Results flagged for a closer look

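Grin3b, a glycine-binding NMDA receptor subunit, differed in direction between the cell sets and was too sparse to be tested in either. In Aire-GFP+ cells it had 3 and 6 counts in the Aire-KO libraries, against 0, 4 and 2 counts in the WT libraries. That gives mean levels of 0.462 CPM in Aire-KO and 0.181 CPM in WT cells, and a log2 ratio of the means of 1.36. In mTEChi cells it had 1 count over the 4 Aire-KO libraries, against 15 counts over the 4 WT libraries, with mean levels of 0.0864 CPM in Aire-KO and 1.42 CPM in WT cells. Every Aire-KO library lay above every WT library in Aire-GFP+ cells (the nearest being 0.357 and 0.353 CPM), and below every WT library in mTEChi cells. The separation in Aire-GFP+ cells rests on the TMM scaling: with library totals these libraries had 0.304 and 0.473 CPM in Aire-KO and 0, 0.395 and 0.21 CPM in WT, which overlap. The difference between the sets was not tested. Exons of Grin3b share 1059 bases with Tmem259, and the counts without strand do not separate them.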

How the results depend on the processing

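Subunits called in the main Aire comparisons kept their direction under all alternatives run. In Aire-GFP+ cells Gabra5, Gabrp, Grin2a, Grin2c and Grin2d, and in mTEChi cells Gabra4, Gabra5, Gabrp and Grin2c, also stayed past the threshold in each. With limma-voom the calls of Gabrq, Gabrr1, Glra1 and Grik3 in Aire-GFP+ cells were lost, and with an offset for effective length those of Gabrr1 and Gria3. Some alternatives also called members that the main fits did not. The offset called Gabrb1 (adjusted p = 0.0204) and Grik2 (0.0478) lower in Aire-GFP+ cells, and DESeq2 called Gabra6 (0.0282) and Glrb (0.0437) lower there. With the PBS and spermidine libraries fitted alone, Gria3 was called higher in Aire-KO mTEChi cells (adjusted p = 0.0275). Without the count filter, 17 members were lower in Aire-KO Aire-GFP+ cells (10 with it), 3 in spermidine-treated Aire-KO cells, 3 with topotecan and 1, Gabrp, in the difference between treatments. With limma-voom, 2 members were lower in Aire-KO mTEChi cells, 0 higher and 0 lower within PBS, 0 lower within spermidine and 0 lower with topotecan. DESeq2 called 2 lower with topotecan. With library totals, 1 member was higher within PBS. Fitting each experiment alone gave 4 higher in Aire-KO mTEChi cells, 3 higher and 2 lower within spermidine, and 0 lower with topotecan. Leaving out each library in turn gave 3 to 10 lower in Aire-GFP+ cells, 0 to 1 higher and 0 to 2 lower within PBS, 0 to 0 higher within spermidine and 0 to 1 lower with topotecan; where 1 library is left in a group, it is assumed to vary like the other groups.

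With replicate number as a block, the counts were 3 higher and 10 lower in Aire-GFP+ cells, 2 higher and 3 lower in mTEChi cells, 1 higher and 1 lower within PBS, 1 higher and 1 lower within spermidine, and 0 higher and 1 lower with topotecan; these numbers did not pair the libraries. The calls of Gabrr3, Glra1 and Grik3 in Aire-GFP+ cells, of Gria2 in mTEChi cells and of Gabra4 within PBS were not made in that fit.

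The difference in summed CPM, Aire-KO minus WT, was -40.52 in Aire-GFP+ and -10.14 in mTEChi cells with library totals, and -4.80 and -2.85 without Gria3, where the main values were 13.0 and 21.5. Without Gria3 the topotecan minus DMSO difference was 1.32. Leaving out each library moved the summed difference between -0.735 and 26.9 for spermidine, between -60.9 and 1.41 for topotecan and between -66.5 and 5.43 for Nfe2l2 deletion, and the number detected between -0.289 and 3.74 for spermidine. The cause of these changes was not tested. Depth limits the sparse subunits: 11 members in Aire-GFP+ and 13 in mTEChi cells, among these 13 all 5 glycine receptor genes, had too few counts to be tested.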
